A study of Mus musculus with 9 samples.

Results

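The collagen chain genes were taken as every gene on the array whose symbol reads Col, a number, a and a number, as in Col8a1. The rule found 42 genes among 18193, and for each gene the probe set brightest on average across the 9 arrays was read. Of these, 24 passed the filter of at least 3 arrays at a log2 signal of 4 and were tested, and 18 did not. Affymetrix mouse arrays were used on RNA of the colonic mucosa, taken from males 6 weeks old. The groups were mice lacking the gastrin gene (Gas-/-, here GasKO), mice carrying an hGas transgene (here hGAS) and wild-type mice (WT), all on a C57BL/6 background, with 3 arrays each. The promoter that drives the transgene, the number of founder lines and whether RNA was pooled are not given in the sources used here. No label says that the replicates were separate animals, so the p-values reflect only how these samples vary, which may be technical.

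Collagens are matrix proteins whose alpha chains wind around each other into a helix, with glycine at regular intervals. Fibril-forming types such as I, III and V give tissue its tensile strength, fibril-associated types such as XII and XIV decorate those fibrils, and type IV forms the network of basement membranes. In the gut wall most collagen is made by fibroblasts and smooth muscle cells beneath the epithelium, with type IV chains also made by epithelial and endothelial cells.

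The tissue label was checked against markers. All 9 colonocyte and mucosa markers passed the filter, with Muc2, the mucin of goblet cells, at a mean log2 signal of 14.67 in GasKO, 14.79 in hGAS and 14.53 in WT (n = 3 each). Smooth muscle markers were also high, with the myosin gene Myh11 at 13.21 in GasKO, 13.12 in hGAS and 13.22 in WT, so the preparations held smooth muscle RNA. Gast itself was at background, at 2.08 in GasKO, 1.95 in hGAS and 1.96 in WT, so its probe set checks neither the knockout nor the transgene. The first principal component, with 53.9% of the variance, set the GasKO arrays (25.8 to 30.1) apart from the others (-19.2 to -8.38), and WT replicate 3 was farthest out on the second (24.95). Calls that rest on it are given also without it.

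Promoter sequences are shown for the genes of the strongest changes, as far as the RefSeq table of GRCm38.p6 holds them, and for a neighbour that did not pass the test. The windows run from 250 bases before to 50 bases after the annotated start, 5′ to 3′ on the gene's own strand. Col8a1 lies on the minus strand with its window at chr16:57754688-57754987. Col4a6 lies on the minus strand of the X chromosome (chrX:141474027-141474326), and its neighbour Col4a5 on the plus strand (chrX:141475169-141475468). Capitals mark matches, on either strand, to TATAAA, the letters of a TATA box, to CCAAT, those of a CCAAT box, to GGGCGG, those of an Sp1 site, to TGANTCA, those of an AP-1 site, or to GGAATG, those of a TEAD site.
Col8a1: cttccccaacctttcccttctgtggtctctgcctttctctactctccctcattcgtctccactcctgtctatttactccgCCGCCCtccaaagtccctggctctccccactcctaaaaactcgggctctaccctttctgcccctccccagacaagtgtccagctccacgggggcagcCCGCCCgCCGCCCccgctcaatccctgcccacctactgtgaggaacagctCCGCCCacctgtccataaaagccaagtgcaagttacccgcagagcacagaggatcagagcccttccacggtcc
Col4a6: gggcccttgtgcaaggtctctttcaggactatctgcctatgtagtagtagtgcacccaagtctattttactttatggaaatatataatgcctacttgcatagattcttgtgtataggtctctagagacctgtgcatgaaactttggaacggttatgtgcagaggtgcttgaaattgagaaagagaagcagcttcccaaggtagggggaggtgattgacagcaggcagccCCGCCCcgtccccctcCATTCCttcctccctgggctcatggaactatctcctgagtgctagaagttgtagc
Col4a5: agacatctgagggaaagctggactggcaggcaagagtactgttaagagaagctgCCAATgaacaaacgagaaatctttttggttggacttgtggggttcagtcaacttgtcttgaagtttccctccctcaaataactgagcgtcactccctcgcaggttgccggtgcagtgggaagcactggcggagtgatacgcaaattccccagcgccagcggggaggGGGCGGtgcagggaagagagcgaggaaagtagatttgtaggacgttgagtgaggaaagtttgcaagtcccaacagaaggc
The Col8a1 window held 4 matches to GGGCGG, at 170, 73, 66 and 23 bases before the start, and none to the other letters. Col4a6 had 1 match to GGGCGG at 21 bases and 1 to GGAATG at 5 bases before the start. Col4a5 had 1 match to CCAAT at 196 bases and 1 to GGGCGG at 30 bases before the start. Of all 32851 windows, 35.7% held GGGCGG, 37.4% CCAAT, 14.7% GGAATG, 13.6% TATAAA and 7.81% TGANTCA. The annotated starts of Col4a6 and Col4a5 lie 1343 bases apart and face away from each other. A match is a description of the letters and not a bound site.

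Against WT, 19 of the 24 members tested passed the test in neither genotype by their brightest probe set. Among them were the chains of types I and III and the common chains of type IV. In GasKO mucosa Col8a1 and Col12a1 fell 2.39-fold and 2.81-fold. Col4a6 also fell, to a GasKO signal at or near background, so the size of its fall is not well set (log2 -1.94 and -2.48 by its 2 probe sets). Col6a4 and Col14a1 were called as higher in GasKO, close to the threshold. In hGAS mucosa Col8a1 rose 1.67-fold, a call kept in 2 of the 9 fits that left out 1 array. No other member passed the test in hGAS against WT.

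**Figure D1:**
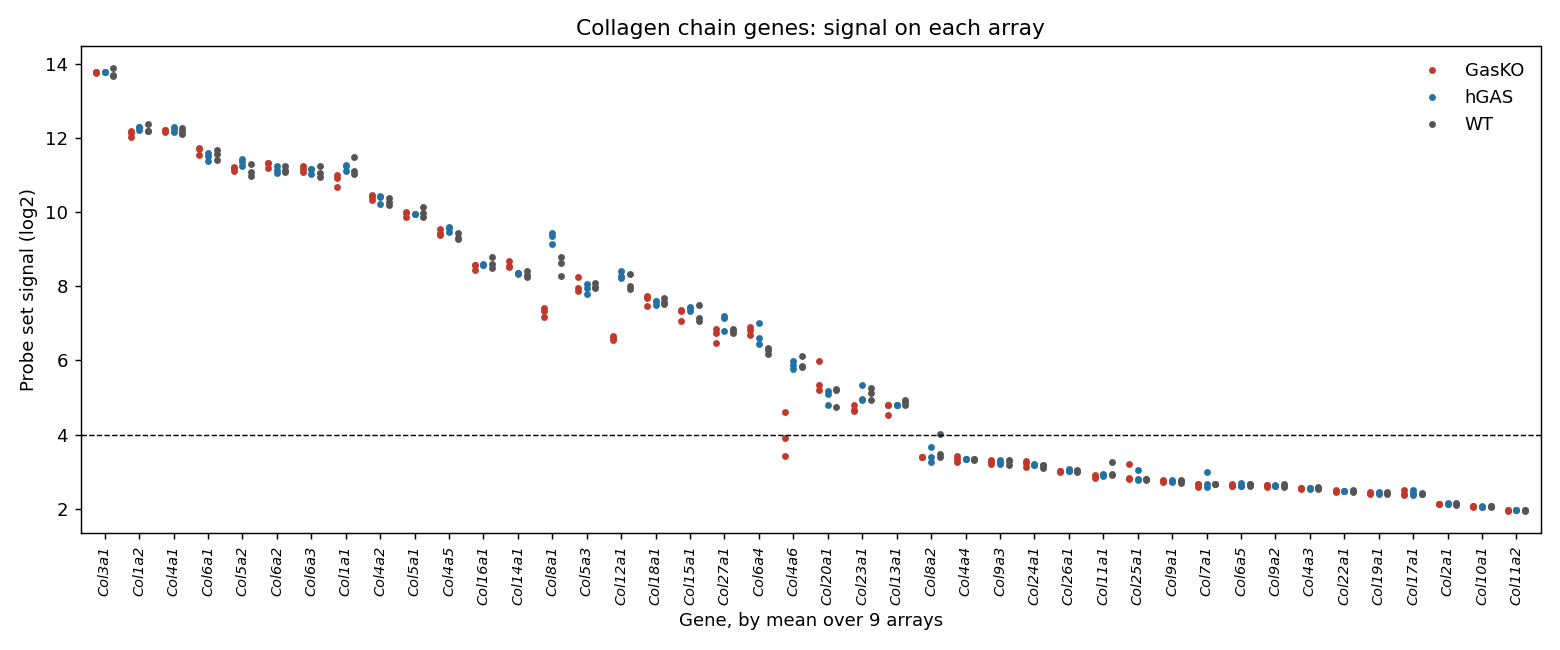
The plot gives the log2 probe set signal (y axis) of all 42 collagen genes, ordered by their mean over 9 arrays (x axis), with 1 point per array, GasKO in red, hGAS in blue and WT in grey. The dashed line is the filter at log2 4, the 18 genes to the right did not pass it, and the red points of Col8a1, Col12a1 and Col4a6 lie apart from the others.

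In GasKO against WT, 5 of the 24 members tested were called at an adjusted p under 0.05 (limma, Benjamini-Hochberg over 11273 genes). Of all genes tested 12.1% were called, 6.64% as higher and 5.48% as lower in GasKO. Among the 5 members, 3 were lower and 2 were higher. The median log2 difference was 0.02 over the 24 members and 0.01 over all genes tested. The groups did not overlap for 7 of 24 members, against 31.1% of all genes, so the share of collagen genes with separate groups was near the background. At least a 2-fold difference with a call was seen in 2.16% of all genes and in Col8a1, Col12a1 and Col4a6.

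Col8a1 encodes a chain of type VIII collagen, a short network-forming collagen of vessel walls and of Descemet's membrane in the eye. Its log2 signal was 7.34, 7.41 and 7.18 in GasKO arrays, 9.44, 9.13 and 9.35 in hGAS arrays, and 8.63, 8.78 and 8.28 in WT arrays. The groups did not overlap in any pairing, with GasKO lowest and hGAS highest. The difference between GasKO and WT was -1.26 (SE 0.13, adjusted p = 0.000216, limma), or -1.40 with WT replicate 3 left out. In bulk tissue, fewer cells that express a gene and less RNA per cell cannot be told apart, here and in what follows. Between hGAS and WT the difference was 0.74 (SE 0.13, adjusted p = 0.0301, limma). That call was lost in 7 of the 9 fits that left out 1 array, with WT replicate 3 left out among them (0.60, adjusted p = 0.0548). The other Col8a1 probe set past the filter had 5.85, 6.82 and 5.78 in GasKO, 8.31, 8.09 and 8.56 in hGAS, and 7.78, 7.83 and 7.31 in WT (log2). It gave -1.49 for GasKO minus WT (adjusted p = 0.00658) and 0.68 for hGAS minus WT (adjusted p = 0.298), when all probe sets with 1 gene were fitted together with limma.

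Col12a1 encodes type XII collagen, a fibril-associated collagen found on type I fibrils in tissues under load. The log2 signal was 6.56, 6.66 and 6.60 in GasKO, 8.28, 8.40 and 8.22 in hGAS, and 8.02, 7.93 and 8.34 in WT. All GasKO arrays lay over 1 log2 unit below every other array, and the hGAS and WT arrays overlapped. GasKO minus WT was -1.49 (SE 0.11, adjusted p = 1.85e-05, limma), or -1.37 with WT replicate 3 left out. Between hGAS and WT the difference was 0.20 with a 95% interval of -0.03 to 0.44 (adjusted p = 0.434, limma). A second probe set fell by 0.84 in GasKO against WT (adjusted p = 0.0395, limma), and a further pair of Col12a1 probe sets was at background in all groups.

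Col4a6 encodes a type IV chain that joins with the product of its neighbour Col4a5 in the basement membranes of smooth muscle and some epithelia. Its log2 signal was 3.44, 3.90 and 4.62 in GasKO, 5.78, 5.87 and 5.98 in hGAS, and 5.84, 5.82 and 6.13 in WT. GasKO arrays were at or near background and spread widely, while hGAS and WT arrays overlapped. The difference between GasKO and WT was -1.94 (SE 0.25, adjusted p = 0.000836, limma), and -1.85 with WT replicate 3 left out. The gene's other probe set stood at 2.42 ± 0.21 in GasKO, 4.99 ± 0.29 in hGAS and 4.91 ± 0.17 in WT, a difference of -2.48 for GasKO minus WT. It reached log2 4 on hGAS and WT arrays alone, the groups where it was high, so these values are a description and no separate support. With the GasKO signal near background, the size of this fall is limited by the background level. Col4a5, whose promoter window is printed beside that of Col4a6, had a log2 signal of 9.38, 9.43 and 9.55 in GasKO, 9.57, 9.59 and 9.46 in hGAS, and 9.30, 9.27 and 9.43 in WT. Its differences from WT were 0.12 in GasKO (95% interval -0.03 to 0.27) and 0.21 in hGAS (0.05 to 0.36), with adjusted p = 0.286 and 0.197 (limma).

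Col6a4 and Col14a1 were the members called as higher in GasKO. Col6a4, a type VI chain of beaded microfibrils, stood at 6.69, 6.82 and 6.90 in GasKO, 6.46, 7.02 and 6.59 in hGAS, and 6.35, 6.28 and 6.18 in WT (log2). Both GasKO and hGAS arrays lay above all WT arrays. The difference was 0.53 for GasKO minus WT (SE 0.14, adjusted p = 0.0315, limma) and 0.42 for hGAS minus WT (SE 0.14, adjusted p = 0.188). Col14a1, a fibril-associated chain that binds the surface of fibrils, stood at 8.51, 8.68 and 8.54 in GasKO, 8.32, 8.35 and 8.36 in hGAS, and 8.30, 8.24 and 8.42 in WT. Its GasKO arrays were above all others by a small margin, with a difference from WT of 0.25 (SE 0.07, adjusted p = 0.0402, limma). The other Col14a1 probe set past the filter gave 0.17, with GasKO and WT arrays that overlapped (adjusted p = 0.453, limma over all probe sets with 1 gene). The calls of Col6a4 and Col14a1 were close to the threshold. Leaving out any 1 array of WT or GasKO removed that of Col6a4, and Col14a1 kept its call in 1 of the 9 fits, the one without WT replicate 3.

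**Figure D2:**
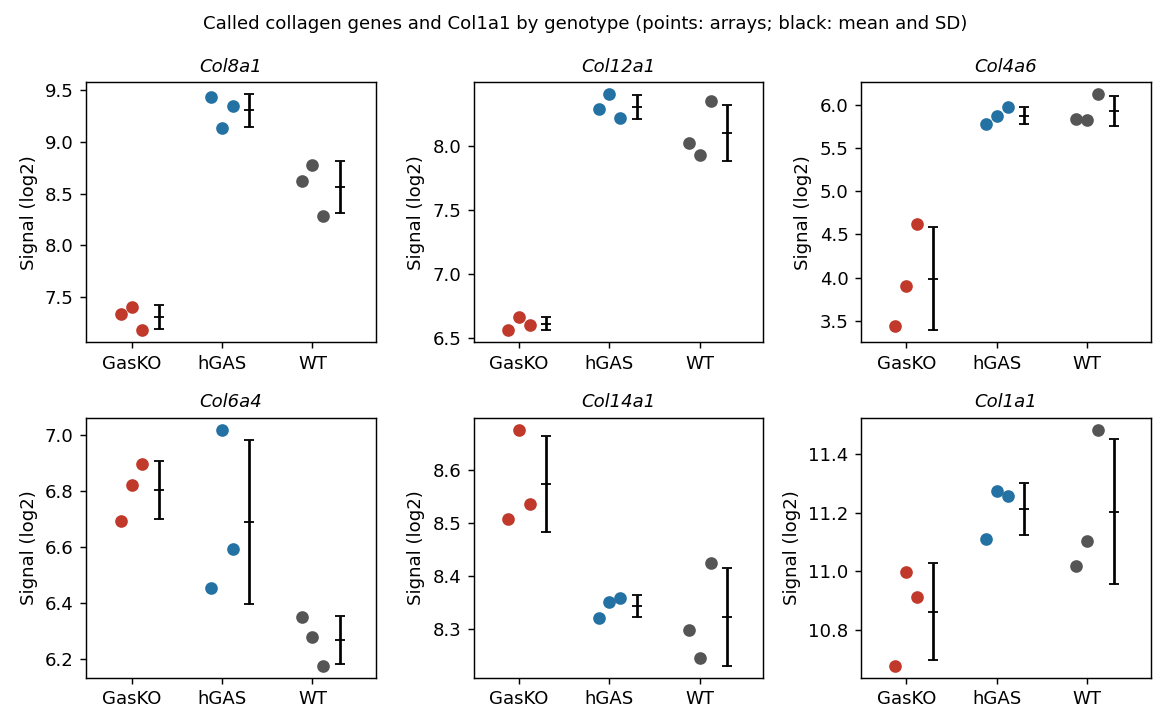
Each panel plots the log2 signal (y axis) of a gene on each array, with GasKO, hGAS and WT from left to right on the x axis and the mean and SD of 3 arrays in black. Col8a1, Col12a1 and Col4a6 are lowest on the 3 GasKO arrays, Col8a1 is highest on the 3 hGAS arrays, and the axes start at different values.

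Fibril-forming chains give the gut wall its strength. Of 11 on the array, 7 were tested, and none was called in GasKO or hGAS against WT by its brightest probe set (limma). Of all genes tested 12.1% and 1.16% were called. In each comparison 1 member had an unadjusted p under 0.05, as did 2921 and 1596 of all 11273 genes. Col1a1, a chain of type I collagen, had log2 signals of 10.68, 11.00 and 10.91 in GasKO, 11.11, 11.27 and 11.26 in hGAS, and 11.02, 11.11 and 11.48 in WT. GasKO arrays were below all WT arrays, by 0.34 in the mean (95% interval of GasKO minus WT -0.61 to -0.07, adjusted p = 0.111, limma). Without WT replicate 3, the highest array, the difference was -0.20. Col1a1 lies on chromosome 11, as does Gast, with 182 protein-coding genes between them, and whether the altered locus plays a part was not tested. Col1a2, the other type I chain, differed by -0.13 (-0.28 to 0.02), with signals of 12.02, 12.20 and 12.14 in GasKO against 12.18, 12.19 and 12.39 in WT, and hGAS arrays at 12.22, 12.29 and 12.30. Col3a1, the chain of type III collagen, gave the brightest probe set of any member, at 13.75, 13.77 and 13.77 in GasKO, 13.77, 13.77 and 13.78 in hGAS, and 13.68, 13.69 and 13.88 in WT. The interval of that probe set for GasKO minus WT ran from -0.11 to 0.13, and for hGAS minus WT from -0.09 to 0.14. A second Col3a1 probe set, given below, was called as higher in GasKO.

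Among the basement membrane chains, 1 of 4 tested was called in GasKO, Col4a6, and none in hGAS, where 12.1% and 1.16% of all genes were called against WT. Col4a1 and Col4a2 form the common type IV network and share a promoter region, with annotated starts 21 bases apart on opposite strands. Col4a1 stood at 12.15, 12.21 and 12.23 in GasKO, 12.15, 12.23 and 12.30 in hGAS, and 12.11, 12.18 and 12.26 in WT. Col4a2 stood at 10.32, 10.41 and 10.46 in GasKO, 10.23, 10.44 and 10.40 in hGAS, and 10.19, 10.28 and 10.38 in WT. The arrays of the 3 genotypes overlapped for both genes. The 95% intervals for GasKO minus WT were -0.11 to 0.13 for Col4a1 and -0.04 to 0.28 for Col4a2. Col4a3 and Col4a4, which form the kidney network with Col4a5, were below log2 4 on every array.

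The main type VI chains, which assemble together into microfibrils around cells, did not pass the test in GasKO or hGAS against WT. Col6a1 had signals of 11.54, 11.70 and 11.73 in GasKO, 11.37, 11.58 and 11.52 in hGAS, and 11.42, 11.56 and 11.68 in WT. Col6a2 had 11.19, 11.34 and 11.32 in GasKO, 11.07, 11.25 and 11.15 in hGAS, and 11.13, 11.07 and 11.26 in WT. Col6a3 had 11.08, 11.17 and 11.26 in GasKO, 11.02, 11.17 and 11.16 in hGAS, and 10.96, 11.06 and 11.24 in WT. Every pair of genotypes overlapped for these 3 genes, and their differences from WT lay between -0.06 and 0.13. Col6a5, next to Col6a4 on chromosome 9, was below log2 4 on every array.

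The 10 other members tested cover further fibril-forming, fibril-associated, transmembrane and multiplexin chains, and none was called in either comparison with WT. Col23a1, a transmembrane collagen, was lower on all GasKO arrays (4.79, 4.64 and 4.67) than on all WT arrays (5.13, 5.25 and 4.94), with hGAS at 4.97, 5.35 and 4.94 and an adjusted p of 0.075 for GasKO minus WT (limma). Of the 19 members not called in GasKO against WT, 16 had a 95% interval within a 1.5-fold difference either way. These intervals are for the brightest probe set of each gene. The second probe sets of Col3a1 and Col5a2 were called as higher in GasKO, as given below, so these genes are not shown to be unchanged. In hGAS against WT this held for 21 of 23. The widest intervals reached -0.69 for Col23a1 and 0.92 for Col20a1 in GasKO, so differences up to those sizes lie within what these arrays leave possible for these genes.

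**Figure D3:**
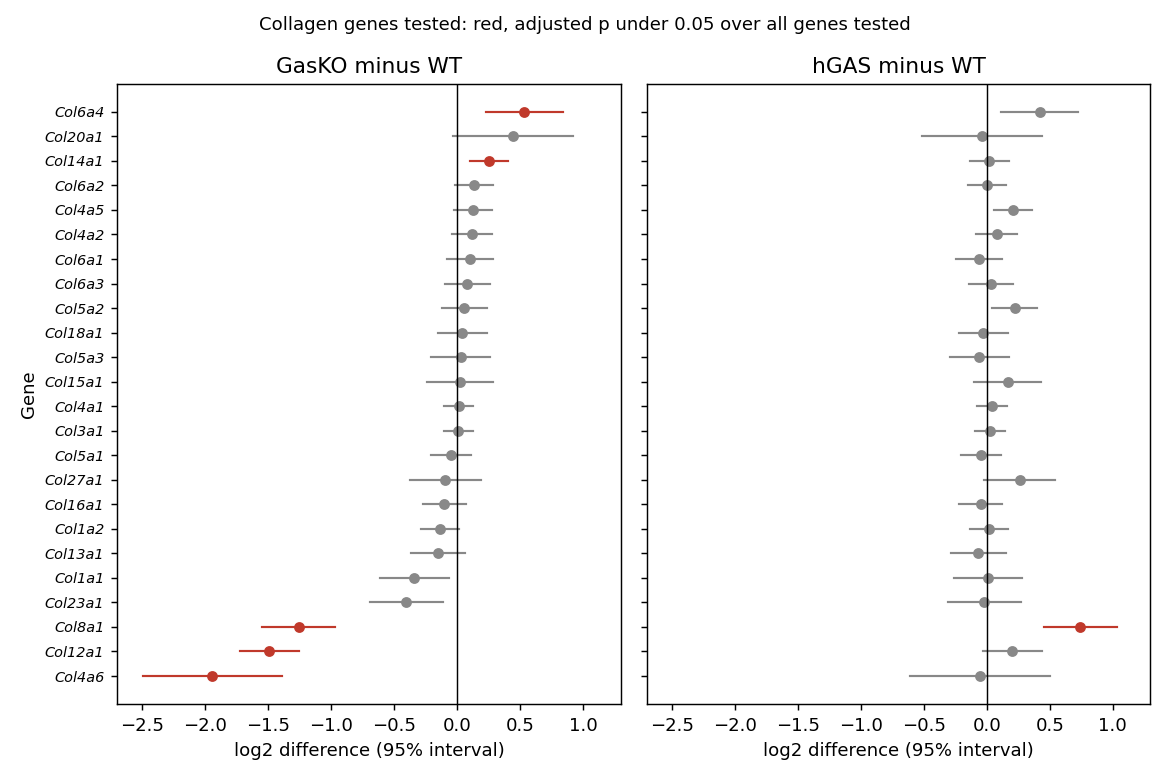
The points give the log2 difference of each of the 24 members tested (y axis) for GasKO minus WT on the left and hGAS minus WT on the right, with bars for the 95% interval and red for an adjusted p under 0.05. Most points lie near 0, with Col4a6, Col12a1 and Col8a1 far to the left in GasKO and Col8a1 to the right in hGAS.

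In hGAS against WT 1 member of 24 was called, Col8a1, as higher, where 1.16% of all genes tested were called, 0.639% as higher and 0.523% as lower. No member was called with a 2-fold difference, and 0.355% of all genes were. The median difference over the members was 0.02, against 0.01 over all genes. The groups did not overlap for 4 of 24 members, against 17.7% of genes. Of all 11273 genes tested 1596 had an unadjusted p under 0.05, and 4 members did. Besides Col8a1 and Col6a4 these were Col4a5 and Col5a2, a type V chain that helps to set fibril width, at 11.36, 11.24 and 11.43 in hGAS against 11.10, 10.98 and 11.29 in WT (difference 0.22, SE 0.08, adjusted p = 0.240, limma).

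Set directly against each other, hGAS and GasKO mucosa differed in 4 of 24 members, 3 higher and 1 lower in hGAS, where 16.6% of all genes were called, 8.05% as higher and 8.51% as lower. The groups did not overlap for 9 members, against 36.7% of all genes, and 3 were called with at least a 2-fold difference, against 2.79% of all genes. The 3 comparisons share arrays pair by pair, so they are not independent of each other. Col8a1 was 3.99-fold higher in hGAS than in GasKO (log2 2.00, SE 0.13, adjusted p = 8.31e-06, limma). Col12a1 was 3.23-fold higher in hGAS (log2 1.69, SE 0.11, adjusted p = 6.96e-06) and Col4a6 was higher too (log2 1.89, SE 0.25, adjusted p = 0.000759). The Col4a6 value is taken over a GasKO signal near background, and its other probe set gave 2.57, so no fold is given. Col14a1 was lower in hGAS by 0.23 (SE 0.07, adjusted p = 0.0464), and with the replicate number as a block its adjusted p was 0.0581. With that block Col1a1, 0.35 higher in hGAS (adjusted p = 0.0807 without it), had an adjusted p of 0.0253. Col6a1, 0.17 lower in hGAS, had 0.0391 in place of 0.196.

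Probe sets of the same gene differed in outcome for some members, fibril-forming genes among them. Of the 42 members, 27 had more than 1 probe set, and 16 had more than 1 that passed the filter. The second probe set of Col3a1 had log2 signals of 11.01, 11.10 and 11.07 in GasKO, 10.61, 10.57 and 10.71 in hGAS, and 10.50, 10.36 and 10.78 in WT. It was 0.51 higher in GasKO than in WT (adjusted p = 0.00788, limma over all probe sets with 1 gene, of which 11% were called in this comparison, 0.873% in hGAS against WT and 14.8% in hGAS against GasKO), while the brighter probe set differed by 0.01. Col5a2, which directly neighbours Col3a1 on chromosome 1, also had probe sets that differed in outcome. Its second probe set had 9.63, 9.59 and 9.57 in GasKO, 9.02, 8.73 and 9.02 in hGAS, and 8.77, 8.73 and 8.95 in WT, a difference of 0.78 for GasKO minus WT (adjusted p = 0.000474), against 0.06 for the first. Which part of each transcript a probe set reads was not examined here. For Col8a1 and Col12a1 both probe sets that passed the filter were called as lower in GasKO. Both Col4a6 probe sets were lower on all GasKO arrays, but the dimmer one reached log2 4 on hGAS and WT arrays alone.

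**Figure D4:**
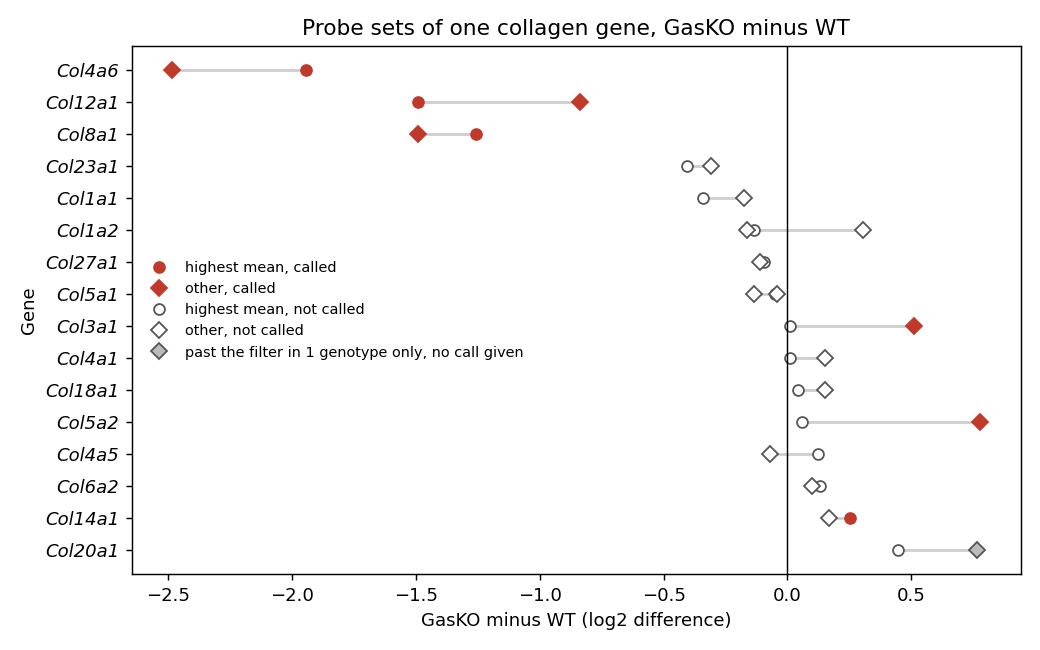
Each row is a collagen gene with more than 1 probe set past the filter, and each point is the log2 difference of a probe set for GasKO minus WT (x axis), as a circle for the probe set with the highest mean and a diamond for the others, filled red where called. Col4a6, Col12a1 and Col8a1 lie left of 0 with all their points, and Col3a1 and Col5a2 have a called diamond to the right of an uncalled circle. The grey diamond is a Col20a1 probe set that reached log2 4 on GasKO arrays alone, for which no call is given. The Col4a6 diamond is a probe set that reached log2 4 on hGAS and WT arrays alone, so its fill adds no support.

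The level of the collagen genes moved with single arrays. WT replicate 3 was the highest of the WT arrays for 17 of 24 members, and for 39.9% of all genes tested. GasKO replicate 1 was the lowest GasKO array for 19 members, against 32.1% of all genes, and hGAS replicate 1 the lowest hGAS array for 16, against 34.6% of all genes. Over the 19 members not called in any comparison, the median deviation from the 9-array mean was 0.07 in WT replicate 3 and -0.07 and -0.04 in WT replicates 1 and 2, against -0.06 to 0.02 in GasKO and -0.02 to 0.05 in hGAS. Of the WT arrays, replicate 3 also had the highest summed signal of smooth muscle (16.02, log2) and fibroblast markers (13.49, against 13.45 in replicate 2). The mesothelium sum was 5.75 there and 5.70 in replicate 1, with 1 marker of that list tested. Replicate 3 had the lowest sums of colonocyte and mucosa (16.51), pericyte (12.06) and adipocyte markers (9.44). Endothelial sums hardly differed between WT arrays (8.88, 8.88 and 8.87 in replicates 1, 2 and 3). Among endothelial markers Pecam1, Cdh5, Cldn5 and Tie1 were highest in replicate 3, and Kdr, Tek and Emcn lowest. Whether these sums bear on the collagen signal was not tested.

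Markers of the cells that make collagen were set beside these changes, and their part in them was not tested. Smooth muscle markers had no call among 7 in GasKO or hGAS against WT. Their summed signal was 15.74 to 15.93 in GasKO, 15.83 to 15.96 in hGAS and 15.84 to 16.02 in WT (log2). Of all genes tested 12.1% were called in GasKO against WT and 1.16% in hGAS against WT. In marker lists this short, having no call does not show a lack of change. Of 5 fibroblast markers tested, Pdgfra and Dcn rose in GasKO, by 0.38 (adjusted p = 0.00491) and 0.26 (adjusted p = 0.0375, limma), and the summed signal was 13.64 to 13.70 in GasKO, 13.40 to 13.50 in hGAS and 13.32 to 13.49 in WT. Dcn was the brightest of the 5 and weighs most in that sum. Pdpn, another fibroblast marker, stood at 8.03 ± 0.14 in GasKO, 8.29 ± 0.19 in hGAS and 8.28 ± 0.11 in WT (SD, n = 3), a difference of -0.25 for GasKO minus WT (adjusted p = 0.186, limma). Endothelial and pericyte markers had no call among 7 and 5 in either comparison with WT, with endothelial sums of 8.93 to 9.02 in GasKO, 8.77 to 8.96 in hGAS and 8.87 to 8.88 in WT. The leukocyte marker Ptprc rose by 0.87 in GasKO (adjusted p = 0.00386), and the epithelial marker Epcam by 0.35 (adjusted p = 0.000526). Epcam was the 1 called of 9 colonocyte and mucosa markers, whose median was 0.04, and in hGAS against WT the 1 called was Car1, a colonocyte carbonic anhydrase, which rose by 0.47 (adjusted p = 0.016). Leukocyte markers summed to 9.28 to 9.80 in GasKO, 8.44 to 8.71 in hGAS and 8.69 to 8.97 in WT, and Ptprc weighs most in that sum. The other leukocyte marker tested, Cd68, differed by 0.31 for GasKO minus WT (adjusted p = 0.430, limma). Adipocyte markers summed to 10.67 to 11.31 in GasKO, 9.73 to 10.58 in hGAS and 9.44 to 10.36 in WT, with none of 3 called. Fabp4 weighs most in that sum. Enteric neuron, enteric glia and mesothelium markers had no call either, among 3, 1 and 1 tested. Pericyte markers summed to 12.38 to 12.49 in GasKO, 12.46 to 12.74 in hGAS and 12.06 to 12.41 in WT, and Rgs5 weighs most in that sum. Twist2, S100b, Gfap, Wt1 and Cd3e were below log2 4 on all arrays.

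Genes that work with collagens were then read from 7 lists, with 80 of 88 entries on the array. Folding and modification genes, which act on new chains in the endoplasmic reticulum, had 2 of 17 tested called in GasKO against WT, beside 12.1% of all genes. Crtap, part of the prolyl 3-hydroxylase complex, rose by 0.33 (adjusted p = 0.0215), and Plod1, a lysyl hydroxylase, fell by 0.28 (adjusted p = 0.0380). The collagen chaperone gene Serpinh1 stood at 10.67 ± 0.07 in GasKO, 10.66 ± 0.09 in hGAS and 10.76 ± 0.15 in WT (SD, n = 3). None of 6 genes for processing and cross-linking was called in GasKO, with none at an unadjusted p under 0.05 (limma), where 2921 of all 11273 genes were. Of 6 receptors 1 was called: Itgb1, the shared beta subunit of collagen-binding integrins, rose by 0.27 (adjusted p = 0.0273).

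Basement membrane partners had 4 of 13 called in GasKO, all higher, where 12.1% of all genes were called and 6.64% as higher. Of the 13, 8 had a difference above 0 and 5 below. The laminin genes Lama2, Lamc1 and Lama4 rose by 0.55, 0.34 and 0.26 (adjusted p = 0.0155, 0.0245 and 0.0460), and Agrn, which encodes the proteoglycan agrin, by 0.49 (adjusted p = 0.0221). The median over this list was 0.18. Col4a6 was lower on the same GasKO arrays on which these basement membrane genes were higher. Among 9 fibril partners Dcn, the proteoglycan decorin that coats fibrils, was the 1 called. Of 8 degradation genes Timp3 and Timp2, inhibitors of matrix metalloproteinases, rose by 0.52 and 0.35 (adjusted p = 0.00615 and 0.0188). Among 9 TGF-beta genes Ltbp1, which stores the latent growth factor in the matrix, rose by 0.45 (adjusted p = 0.00455), and Ccn2, a matricellular target, stood 0.69 lower in GasKO (adjusted p = 0.063). In hGAS against WT none of the 68 partner entries tested was called by limma, where 1.16% of all genes were. An unadjusted p under 0.05 was found for 10 of the 68, and for 1596 of all 11273 genes.

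In hGAS against GasKO, 5 of the 9 TGF-beta genes were called, where 16.6% of all genes were. Ltbp1, Smad7, Tgfbr2 and Tgfb1 were lower in hGAS by 0.59, 0.39, 0.32 and 0.43 (adjusted p = 0.00078, 0.0042, 0.00549 and 0.0115, limma). Ccn2, the 1 called as higher, was at 10.35 ± 0.26 in hGAS and 9.54 ± 0.15 in GasKO (SD, n = 3, adjusted p = 0.0280). Timp3 and Timp2 were lower in hGAS by 0.79 and 0.46 (adjusted p = 0.000399 and 0.00416). Agrn, Lamc1, Dcn and Ddr2, a collagen receptor kinase, were lower by 0.48, 0.31, 0.29 and 0.27 (adjusted p = 0.0208, 0.0305, 0.0186 and 0.0165), and Plod1 was higher by 0.34 (adjusted p = 0.0127).

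**Figure D5:**
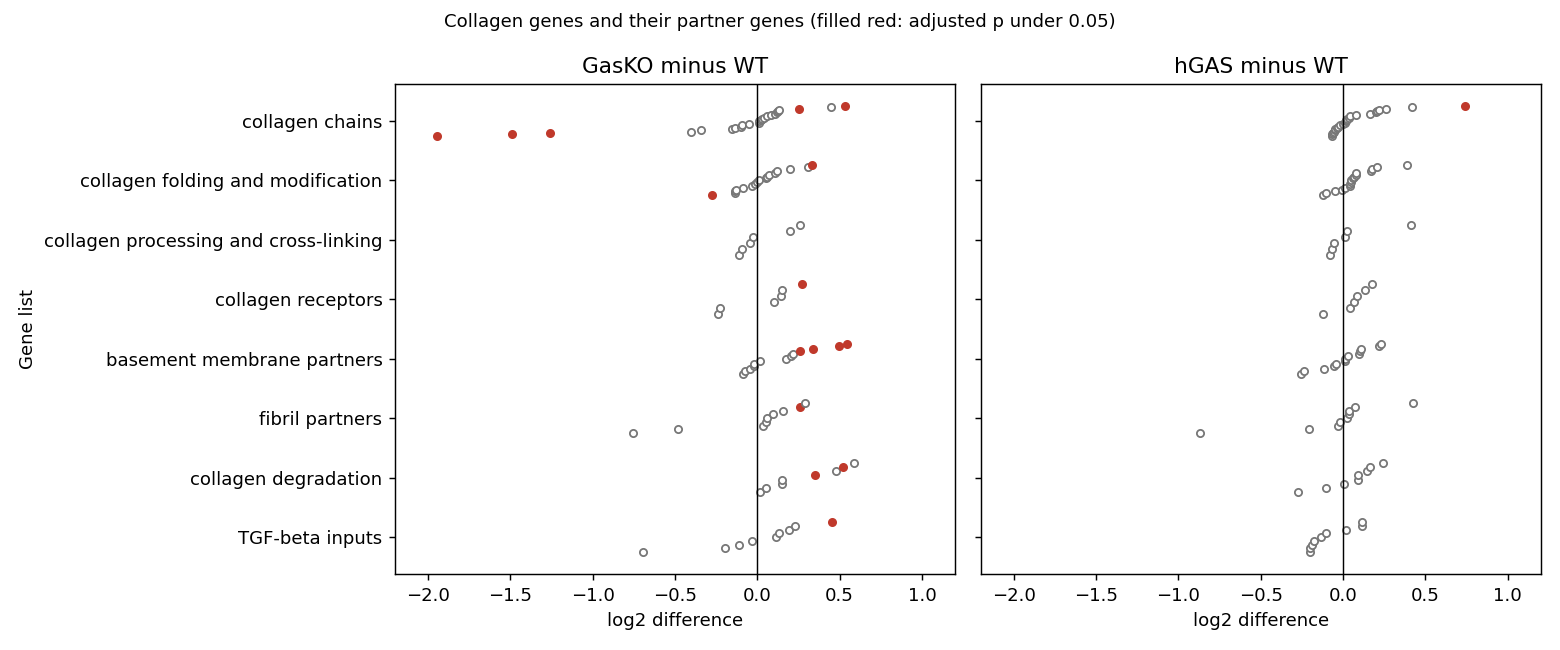
Each point is the log2 difference of a tested gene (x axis) within a list (y axis), for GasKO minus WT on the left and hGAS minus WT on the right, filled red at an adjusted p under 0.05. The lowest points of any list on the left are the collagen genes Col4a6, Col12a1 and Col8a1, while called partner genes other than Plod1 lie right of 0.

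The 18 members below the filter ranged from 1.95 to 4.01 over all arrays. They include the cartilage chains Col2a1, Col9a1, Col9a2, Col9a3, Col10a1, Col11a1 and Col11a2, the anchoring fibril chain Col7a1 and the hemidesmosome chain Col17a1. The others are Col4a3, Col4a4, Col6a5, Col8a2, Col19a1, Col22a1, Col24a1, Col25a1 and Col26a1. Their differences between group means lay between -0.22 and 0.15 for GasKO minus WT and between -0.18 and 0.09 for hGAS minus WT. Of these, 17 stayed below log2 4 on every array, and Col8a2, the partner chain of Col8a1 in type VIII collagen, reached it on 1 WT array. All 24 members that passed reached log2 4 on at least 1 array of each genotype.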

How the data were processed

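Colonic mucosa RNA was hybridised to 9 arrays of 45101 probe sets. The authors deposited log2 values made with GCRMA, per the submitters' processing notes, which give no version; in its usual form this corrects background by probe sequence and normalises by quantiles. They span 0.881 to 15.1, and the array medians 4.13 to 4.16. Symbols came from the platform annotation, which paired 34945 probe sets with 1 gene, 932 with several and 9224 with none (controls included). Of the first, 34741 matched the RefSeq gene table of GRCm38.p6 and no symbol changed. That table served for names and neighbours, since no build is stated for the arrays.

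Each gene was read by the probe set with the highest mean, and 11273 genes with at least 3 arrays at log2 4 were tested. A linear model with genotype as its term was fitted to all 9 arrays in limma 3.58.1 (R 4.3.3) using lmFit and trended eBayes (6 residual and 3.47 prior degrees of freedom). Tests were 2-sided with Benjamini-Hochberg adjustment over all genes tested, and called at 0.05. The same settings were run on all probe sets with 1 gene. A moderated F test over the 3 genotypes called 5 members, those called in GasKO against WT, where 15.8% of genes were called. The number of arrays limits the precision.

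Per-array values are given for members called in any comparison, for those whose arrays do not overlap WT with a log2 difference of at least 0.5, and for types I, III, IV and VI. From partner lists the up to 4 called genes of smallest p per comparison are named. Col23a1, Col5a2, Serpinh1, Ccn2 and single markers were chosen after their values were seen. Members and lists were chosen with earlier results of these data known. A summed marker signal is log2 of the sum of unlogged signals. Motifs were searched on both strands of 32851 promoter windows.

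Same-numbered arrays of hGAS and GasKO deviated together from their group means (correlations over genes of 0.117, 0.201 and 0.267), so the numbers may pair those groups. The main fit has no block, and blocked values are given where calls change. For GasKO and WT (0.150, -0.00557 and 0.145) and for hGAS and WT (0.254, 0.0838 and 0.203) not every pair was over 0.1. Some arrays of unlike number also passed 0.1, as WT replicate 1 and GasKO replicate 2 did (0.113). These values do not settle which groups are paired. Alternatives covered probe set choice, filter, normalisation, eBayes settings, array weights, fits to 6 arrays, the threshold, the block and each array left out. The second highest probe set and the fit to all probe sets were added after seeing the data. Figures used matplotlib 3.10.9 in Python 3.11.15.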

Additional observations from a re-analysis of the deposited data

How the results depend on the processing

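Of 22 alternatives, 21 were planned and 1, the second highest probe set, was chosen after seeing the data. The calls of Col8a1, Col12a1 and Col4a6 in GasKO against WT and in hGAS against GasKO were kept in all 22, with GasKO minus WT between -1.49 and -1.15 for Col8a1, -1.57 and -0.58 for Col12a1, and -2.48 and -1.67 for Col4a6. With probe sets averaged Col12a1 stood at -0.58. With the second highest probe set, with probe sets averaged and with the filter at log2 5, Col4a6 passed the filter through hGAS and WT arrays alone. Those alternatives add no separate support for this gene. Without GasKO replicate 3, the GasKO arrays left for Col4a6 (3.44 and 3.90) were below log2 4. Other calls were kept less often: Col6a4 in 13 of 21, Col14a1 in 7 of 22 (9 of 22 in hGAS against GasKO) and Col8a1 in hGAS against WT in 11 of 22, with adjusted p up to 0.109, 0.454, 0.132 and 0.293 (limma). The count in GasKO against WT was 5, and 3 with no filter on low values, where all 42 members entered, and 3 to 5 with 1 array left out. Without WT replicate 1 or 2, or without any single GasKO array, it was 3. In hGAS against WT the count of 1 became 0 with probe sets averaged, with no filter, with a fit to the 6 arrays compared and with the second highest probe set, where 2, 4, 4 and 1 members had an unadjusted p under 0.05. It was 0 to 1 with 1 array left out, and 1 without WT replicate 2 or hGAS replicate 2. In hGAS against GasKO the count of 4 became 7 at a threshold of 0.1 and 7 with the second highest probe set, and was 3 to 5 with 1 array left out. Col3a1 changed direction in that comparison, to -0.43, with probe sets designed for 1 transcript and with the second highest probe set, since both read its other probe set. With the replicate number as a block, the count in GasKO against WT stayed at 5, with Col1a1 called (-0.34, adjusted p = 0.0361) and Col14a1 not (adjusted p = 0.0532), the count in hGAS against WT stayed at 1, and that in hGAS against GasKO was 5. Beside these and the changes given for hGAS against GasKO, the block changed no member's call. A setting can also change the share of all genes called, which is not given here for the alternatives. The changes in these counts are thus not read as a result about collagen genes. Causes were not tested beyond this.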

Other observations

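Col20a1, a fibril-associated chain, was not called with its brightest probe set, which stood at 5.19, 5.35 and 5.99 in GasKO, 5.10, 5.19 and 4.80 in hGAS, and 5.20, 5.24 and 4.76 in WT (log2). Another probe set reached the filter only through its GasKO arrays, so it had to differ and its values are a description with no test. It had 4.33, 4.26 and 4.13 in GasKO, 3.57, 3.41 and 3.57 in hGAS, and 3.43, 3.44 and 3.56 in WT. A probe set that did not pass the filter stood at 3.30, 2.96 and 4.03 in GasKO, with 2.57 to 2.60 in hGAS and 2.58 to 2.60 in WT. Both dimmer probe sets lay near or below the filter at log2 4, and the gene was singled out after its values were seen.

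A second probe set of Col1a2 was 0.34 higher in hGAS than in GasKO (10.98 ± 0.07 in hGAS and 10.64 ± 0.10 in GasKO, SD, n = 3, adjusted p = 0.0269, limma), where the brightest gave 0.15 (adjusted p = 0.169 in the same fit). A further, dimmer probe set went the other way by -0.37, at 4.27 ± 0.22 in hGAS and 4.64 ± 0.05 in GasKO with groups that did not overlap (adjusted p = 0.141). The spread between arrays of a genotype, as the median SD over the 24 members tested, was 0.0919 in GasKO, 0.0905 in hGAS and 0.125 in WT, against 0.0804, 0.0930 and 0.0932 over all genes tested.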
